A study of Mus musculus with 24 samples.

Results

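Genes that encode chaperones, folding enzymes, degradation factors and stress sensors of the endoplasmic reticulum (ER) were followed in 24 mouse tumours. The set was a list of 32 gene symbols, and a gene was represented by the probe set of highest mean that the platform annotation names with that symbol. Of the 32 members, 30 were measured, each by 1 probe set, among 19505 genes in all. Manf and Pdia4 had no probe set of that name and were not analysed here.

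The tumours formed 4 groups of 6: control tumours that received vector, tumours given BMS754807, tumours given hydroxychloroquine, and tumours given both (the combination). BMS754807 blocks the kinases of IGF1R and IR, the receptors for insulin-like growth factor 1 and insulin. Hydroxychloroquine is a weak base that keeps lysosomes from acidifying and thereby stops autophagy at its end. The title names pancreatic ductal adenocarcinoma (PDAC) as the tumour. Mouse strain, age, tumour line and site, doses and treatment times are not given in the sources used here, nor is it stated whether each sample is a different animal, and p-values then measure only the spread between samples, which may be technical.

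The ER folds secreted and membrane proteins, and a load of unfolded protein there is sensed by IRE1 (gene Ern1), PERK (Eif2ak3) and ATF6 (Atf6). IRE1 splices the Xbp1 transcript, PERK slows translation and lets ATF4 be made, and ATF6 is cut to release a transcription factor; together they raise transcription of chaperones and of degradation factors. The pancreas is a secretory organ, and its acinar cells in particular carry a large ER. The arrays give total transcript signal and measure neither Xbp1 splicing nor any sensor's activity.

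Signal is given as the deposited log2 values, where 1 unit is a doubling. Array medians lay between 6.79 and 7.03, and precision is limited by how many arrays there are. The epithelial markers Krt8 (15.97 to 16.65), Krt18 (15.87 to 16.49) and Cdh1 (15.92 to 16.68) were bright in all 24 tumours. Of 18 measured acinar markers 17 lay below every array median in all 24 tumours, among them Ctrb1 (1.84 to 3.08), Ptf1a (1.70 to 2.76) and Cela2a (4.98 to 6.19), and the other, Cela1, ran from 6.65 to 8.63. Skeletal muscle markers gave a list score (mean deviation from each gene's mean) above 2 in 5 tumours: control 5, BMS754807 2 and 6, hydroxychloroquine 5 and combination 1. B and plasma cell markers gave a score above 1 in 3: BMS754807 5, hydroxychloroquine 1 and combination 4. In bulk tissue, fewer cells of a type and less RNA per cell cannot be told apart.

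Many ER stress genes carry the ER stress response element (ERSE), read by ATF6 with the CCAAT-binding factor NF-Y, and the promoter sequences of the members show it directly. The element searched was CCAAT, 9 bases of any kind and CCACG; its second form, ERSE-II, was ATTGG, 1 base and CCACG. Promoter windows from RefSeq (build GRCm38.p6), from 250 bases before to 50 after an annotated start, were given for 26 of the 30 measured members in 27 windows, and both strands were read. The windows below, of which the 250 bases before the start are printed 5′ to 3′ along the gene, show the classical arrangement (Hspa5), a pair of elements on opposite strands (Hsp90b1), an inverted element (Creld2), the ERSE-II form (Herpud1), and the member with the lowest p of all comparisons with control (Sdf2l1). Capitals mark the letters of both ends of an element as read on the gene's strand, so an inverted ERSE appears as CGTGG, 9 bases and ATTGG. The stretches are chr2:34771840-34772089 (plus strand) for Hspa5, chr10:86705445-86705694 (minus strand) for Hsp90b1, chr15:88819396-88819645 (plus strand) for Creld2, chr8:94386179-94386428 (plus strand) for Herpud1 and chr16:17132384-17132633 (minus strand) for Sdf2l1.
Hspa5: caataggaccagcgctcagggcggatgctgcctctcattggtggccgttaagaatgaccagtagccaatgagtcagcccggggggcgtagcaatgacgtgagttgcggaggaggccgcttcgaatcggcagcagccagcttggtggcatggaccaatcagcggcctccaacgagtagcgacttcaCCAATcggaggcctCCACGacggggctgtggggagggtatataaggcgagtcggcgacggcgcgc
Hsp90b1: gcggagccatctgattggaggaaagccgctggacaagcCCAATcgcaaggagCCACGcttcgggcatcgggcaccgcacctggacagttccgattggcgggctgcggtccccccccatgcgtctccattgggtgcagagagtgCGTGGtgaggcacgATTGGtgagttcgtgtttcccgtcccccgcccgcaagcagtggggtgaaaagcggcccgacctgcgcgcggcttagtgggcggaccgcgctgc
Creld2: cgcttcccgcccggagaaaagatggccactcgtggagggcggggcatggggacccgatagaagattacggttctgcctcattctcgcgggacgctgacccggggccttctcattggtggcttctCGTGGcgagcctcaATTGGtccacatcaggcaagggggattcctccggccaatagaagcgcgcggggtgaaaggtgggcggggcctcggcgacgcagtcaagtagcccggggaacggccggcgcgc
Herpud1: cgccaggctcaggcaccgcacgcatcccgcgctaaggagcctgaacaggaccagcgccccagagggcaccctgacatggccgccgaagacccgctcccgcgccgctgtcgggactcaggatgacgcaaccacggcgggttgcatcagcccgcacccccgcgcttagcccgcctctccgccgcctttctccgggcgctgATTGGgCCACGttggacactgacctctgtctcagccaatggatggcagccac
Sdf2l1: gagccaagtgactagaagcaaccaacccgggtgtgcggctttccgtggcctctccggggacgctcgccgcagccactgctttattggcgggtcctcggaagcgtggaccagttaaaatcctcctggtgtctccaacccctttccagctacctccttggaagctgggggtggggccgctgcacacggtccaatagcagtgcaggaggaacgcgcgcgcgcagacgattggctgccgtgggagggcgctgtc

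In Hspa5 the exact match of ERSE lay at positions -65 to -47 from the start, and in Herpud1 that of ERSE-II lay at -52 to -42. ERSE was found in 9 members (Hspa5, Hsp90b1, Dnajc3, Creld2, Calr, Canx, Pdia6, Syvn1 and Derl3) and in 39 of 32851 windows over all genes (0.1187%). ERSE-II was found in Herpud1 and Dnajb11 and in 12 windows over all genes (0.03653%). Hsp90b1 held 2 copies of ERSE, at -212 to -194 and at -107 to -89. None of the 27 member windows held the core TGACGTGG of the unfolded protein response element, which 222 windows over all genes held (0.6758%). The Sdf2l1 window held CCAAT boxes but neither element, as the lack of capitals shows. CCAAT alone is part of ERSE, and it or its complement occurred in 21 members and in 37.41% of all windows. No match of one element overlapped a match of another in the members. Only exact matches were counted, so near matches, such as CCAAT, 9 bases and CCAAC in the Hspa5 window, were passed over. Members counted as having neither element may hold near matches. A match describes letters in the window and is no measure of binding, and these genes are textbook examples on which the elements were described.

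**Figure D1:**
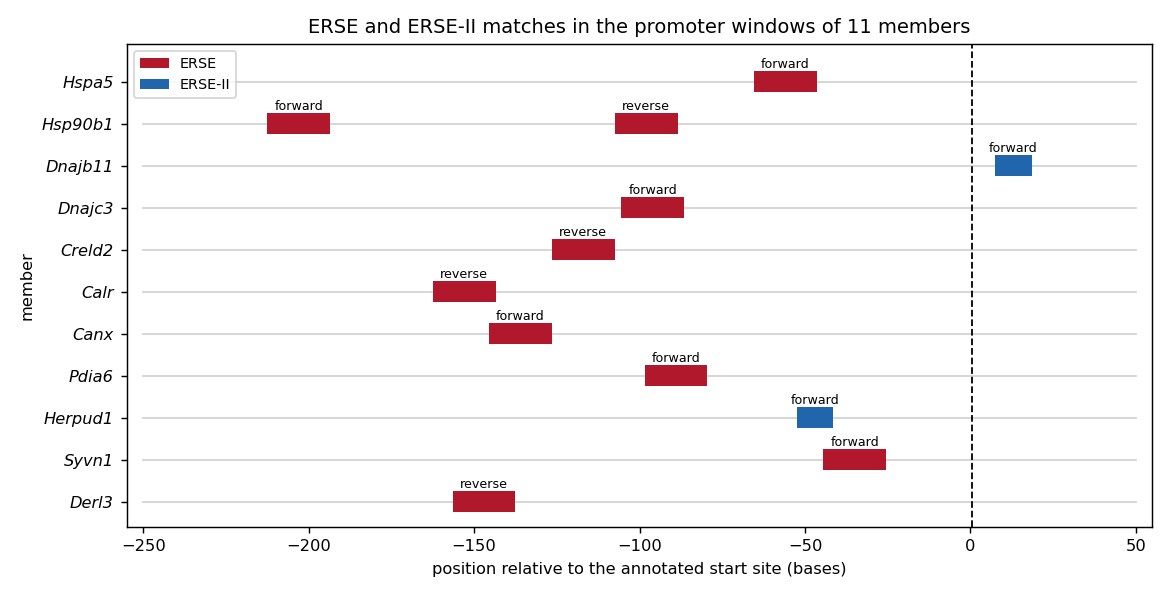
Positions of ERSE (red) and ERSE-II (blue) matches relative to the annotated start site (dashed line, bases on the x axis) in the 11 members with a match, with the strand of the match above each box. Most lie between -162 and -26, the second Hsp90b1 match lies further out and the Dnajb11 match at 8 to 18 lies after the start.

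No member passed the test in any comparison. In limma, 0 of 19505 genes (0%) had an adjusted p under 0.05 in each of the 3 comparisons with control, the 2 comparisons of the combination with a single agent, the 2 main effects and the interaction. Differences below are therefore values that did not pass, each with its SE from the fit across all 24 arrays (n = 6 per group) and with two-sided tests. Counts of members at an unadjusted p under 0.05 are set against the share of all genes there. One set of 6 control tumours serves all 3 comparisons with control.

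With both agents given, the question is how the ER genes differed from control. All 8 measured lumenal chaperones and cofactors had a positive difference there, with a median of 0.15 log2, and so did 4 of 5 lectin chaperones and disulfide isomerases, with a median of 0.09. Of the 9 degradation genes 4 were higher and 5 lower. Over the 30 members 22 were higher and 8 lower, with a median of 0.07 against 0.01 over all genes, of which 51.4% were higher. A single member had an unadjusted p under 0.05, where 5.06% of all genes did. These medians describe the groups and carry no test. The lumenal genes varied together within groups, so their signs are not separate observations.

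Sdf2l1, a cofactor that joins the BiP chaperone complexes of the ER lumen, stood furthest apart. Its signal was 8.90 to 9.50 (median 9.29) in control, 8.81 to 10.08 (median 9.36) in BMS754807, 9.26 to 10.32 (median 9.69) in hydroxychloroquine and 9.66 to 10.42 (median 9.93) in combination tumours. Every combination tumour lay above every control tumour, an arrangement found in either direction in 60 genes (0.308%), while the other groups overlapped with control. The difference was 0.70 ± 0.20 log2 (1.63-fold, 95% interval 0.30 to 1.11), higher in 6 of 6 combination tumours than the control mean, with an adjusted p of 0.865 in limma. Over 25 alternative settings the difference ran from 0.59 to 0.76 and the adjusted p from 0.486 to 1. Against control the same gene differed by 0.45 ± 0.20 under hydroxychloroquine and by 0.14 ± 0.20 under BMS754807.

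Hspa5 encodes BiP, the main Hsp70 of the ER lumen and the most used readout of the unfolded protein response. Hspa5 signal was 16.97 to 17.45 (median 17.07) in control, 16.51 to 17.24 (median 17.13) in BMS754807, 16.90 to 17.74 (median 17.17) in hydroxychloroquine and 17.18 to 17.54 (median 17.36) in combination tumours. BMS754807 tumour 6 was the lowest of all and hydroxychloroquine tumour 1 the highest, and the 4 groups overlapped. Hspa5 differed from control by 0.21 ± 0.14 in the combination (95% interval -0.08 to 0.49), by 0.08 ± 0.14 under hydroxychloroquine and by -0.11 ± 0.14 under BMS754807. Without hydroxychloroquine tumour 1 the hydroxychloroquine difference changed sign to -0.02.

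Hsp90b1 (GRP94), the ER member of the Hsp90 family, varied little. Its values were 16.22 to 16.51 (median 16.27) in control, 15.97 to 16.53 (median 16.23) in BMS754807, 16.23 to 16.47 (median 16.29) in hydroxychloroquine and 16.27 to 16.55 (median 16.32) in combination tumours. All groups overlapped, and the differences from control were -0.11 ± 0.10, -0.00 ± 0.10 and 0.03 ± 0.10 under BMS754807, hydroxychloroquine and the combination. Hyou1, which acts as a nucleotide exchange factor for BiP, differed by 0.22 ± 0.15 in the combination.

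Dnajb9 (ERdj4), a BiP co-chaperone and a classical XBP1 target, was measured at 12.70 to 12.96 (median 12.88) in control, 12.24 to 13.14 (median 12.84) in BMS754807, 12.78 to 13.59 (median 13.06) in hydroxychloroquine and 12.35 to 13.29 (median 12.94) in combination tumours. Combination tumours 1 and 5 and BMS754807 tumour 6 were below all controls, and hydroxychloroquine tumour 3 was the highest of the 24. Dnajb9 differed by 0.24 ± 0.16 under hydroxychloroquine and by 0.03 ± 0.16 in the combination. Creld2, a secreted and ER-resident stress protein, was measured at 10.73 to 11.62 (median 11.02) in control, 11.14 to 11.64 (median 11.26) in BMS754807, 10.54 to 11.60 (median 10.93) in hydroxychloroquine and 11.04 to 11.71 (median 11.24) in combination tumours. Its differences were 0.20 ± 0.17 under BMS754807, -0.12 ± 0.17 under hydroxychloroquine and 0.20 ± 0.17 in the combination, and the groups overlapped. The co-chaperones Dnajc3 (0.08 ± 0.14) and Dnajb11 (0.09 ± 0.15) lay close to control in the combination.

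Among the lectin chaperones, which hold glycoproteins during folding, Calr signal was 17.04 to 17.38 (median 17.20) in control, 16.97 to 17.33 (median 17.14) in BMS754807, 17.20 to 17.49 (median 17.32) in hydroxychloroquine and 17.22 to 17.37 (median 17.32) in combination tumours. All 6 combination tumours lay above the control mean, but the ranges overlapped and the difference was 0.09 ± 0.09. Pdia3, the disulfide isomerase that works with Calr and Canx, had values of 15.03 to 15.72 (median 15.30) in control, 15.24 to 15.54 (median 15.37) in BMS754807, 15.04 to 15.61 (median 15.45) in hydroxychloroquine and 15.41 to 15.65 (median 15.60) in combination tumours. The combination tumours sat in a narrow band within the upper part of the control range, and the difference was 0.21 ± 0.12 (adjusted p = 0.944 in limma). Pdia6 differed by 0.12 ± 0.10 and Canx by 0.07 ± 0.09, while P4hb, the commonest disulfide isomerase, differed by -0.10 ± 0.10.

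**Figure D2:**
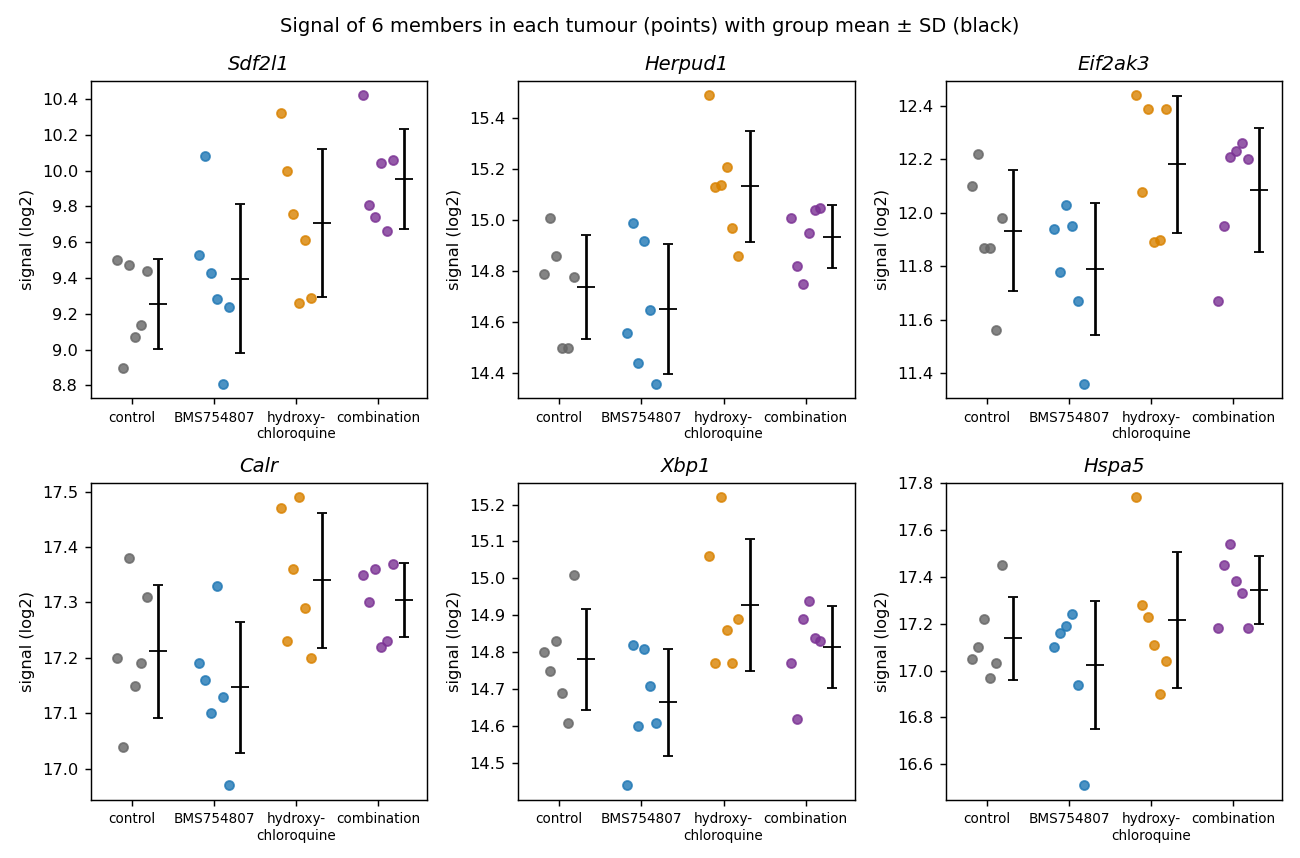
Signal (log2, y axis; each panel has its own range) of 6 members in each of the 6 tumours of a group (points), with group mean and SD in black. Sdf2l1 is the one panel in which no combination tumour falls within the control range, and Herpud1 shows its highest values under hydroxychloroquine.

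In hydroxychloroquine tumours, the comparison with control shows the autophagy inhibitor by itself. Here 3 members had an unadjusted p under 0.05, all of them higher, where 4.81% of all genes had such a p and 2.43% were higher with it. These were Herpud1, Syvn1 and Sdf2l1. The count fell to 1 without control tumour 2, without hydroxychloroquine tumour 1, or without the 3 tumours rich in B and plasma cell transcripts. Over all 30 members 17 were higher and 13 lower, with a median of 0.03; the median was -0.02 when each array was centred on its own median. In the same comparison 11 of 11 fibroblast markers (median 0.43) and 15 of 15 skeletal muscle markers (1.16) were higher. So were 9 of 10 T and NK cell markers (0.39), and 9 of 9 adipocyte markers were lower (-0.55). Apart from settings with the muscle score as a covariate or without muscle-rich tumours, their part in the member differences was not tested.

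Herpud1 encodes a membrane protein that gathers the ER degradation machinery and is strongly stress-inducible. Its signal was 14.50 to 15.01 (median 14.79) in control, 14.36 to 14.99 (median 14.61) in BMS754807, 14.86 to 15.49 (median 15.13) in hydroxychloroquine and 14.75 to 15.05 (median 14.98) in combination tumours. All 6 hydroxychloroquine tumours lay above the control mean, with control tumours 2 (15.01) and 3 (14.86) reaching into their range. The difference was 0.39 ± 0.13 (1.31-fold, 95% interval 0.13 to 0.65), with an adjusted p of 0.979 in limma. In the combination it was 0.20 ± 0.13, and the combination stood below hydroxychloroquine alone by 0.20 ± 0.13.

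Syvn1 encodes HRD1, the ubiquitin ligase of the same machinery. Syvn1 signal was 9.79 to 10.49 (median 10.19) in control, 9.98 to 10.49 (median 10.38) in BMS754807, 10.14 to 10.85 (median 10.44) in hydroxychloroquine and 10.14 to 10.47 (median 10.21) in combination tumours. Hydroxychloroquine tumours 1 and 3 were the highest of the 24. The difference was 0.34 ± 0.14 under hydroxychloroquine (adjusted p = 0.979 in limma) and 0.11 ± 0.14 in the combination. Sel1l, the partner of HRD1, differed by -0.01 ± 0.11 and by 0.06 ± 0.11 in those groups, and the lectin Os9, which hands glycoproteins to them, by 0.03 ± 0.08 and -0.04 ± 0.08.

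Derl3, a derlin known from secretory cells, was dim, below all array medians in every tumour. Its values were 4.39 to 5.54 (median 4.79) in control, 4.59 to 5.23 (median 4.94) in BMS754807, 4.27 to 5.20 (median 4.71) in hydroxychloroquine and 4.09 to 5.33 (median 4.68) in combination tumours. The groups overlapped throughout, and Derl3 differed from control by -0.20 ± 0.21 in the combination. Derl1 and Derl2, broadly expressed derlins, differed by 0.04 ± 0.13 or less in size from control in all 3 comparisons.

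BMS754807 against control asks what receptor inhibition did alone. The 30 members lay between -0.14 and 0.20, 14 higher and 16 lower with a median of -0.02, and 0 had an unadjusted p under 0.05 in limma, where 5.88% of all genes did. All 15 skeletal muscle (median 1.31), 9 adipocyte (0.97) and 11 fibroblast markers (0.22) were higher in this comparison, 0 of them with an unadjusted p under 0.05 in limma. Among the members, Edem1, Edem2 and Xbp1 had the lowest p. Edem1 and Edem2 encode mannosidase-like factors that mark glycoproteins for degradation. Edem1 signal was 12.26 to 12.58 (median 12.36) in control, 12.44 to 12.69 (median 12.56) in BMS754807, 12.21 to 12.86 (median 12.37) in hydroxychloroquine and 12.29 to 12.74 (median 12.57) in combination tumours. All 6 BMS754807 tumours lay above the control mean within overlapping ranges, and the difference was 0.17 ± 0.11 (adjusted p = 0.932 in limma). Edem2 signal was 10.77 to 11.10 (median 10.96) in control, 10.53 to 11.19 (median 10.82) in BMS754807, 10.50 to 11.01 (median 10.89) in hydroxychloroquine and 10.85 to 11.02 (median 10.94) in combination tumours. It differed by -0.13 ± 0.11 under BMS754807, with the control range inside that of the BMS754807 tumours.

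Of the sensors and transcription factors, Xbp1 carries the transcription factor downstream of IRE1. Its signal was 14.61 to 15.01 (median 14.78) in control, 14.44 to 14.82 (median 14.66) in BMS754807, 14.77 to 15.22 (median 14.88) in hydroxychloroquine and 14.62 to 14.94 (median 14.84) in combination tumours. Xbp1 differed by -0.12 ± 0.10 under BMS754807, by 0.15 ± 0.10 under hydroxychloroquine and by 0.03 ± 0.10 in the combination, with overlap in all. The sensor Eif2ak3 differed by -0.14 ± 0.14, 0.25 ± 0.14 and 0.15 ± 0.14 in the same order. The sensors Ern1 and Atf6 lay between -0.05 and 0.10 of control in all 3 comparisons, with SEs of 0.13 and 0.15. Wfs1, an ER membrane protein that restrains ATF6, varied most within a group, with an SD of 0.53 among controls, and differed by -0.14 ± 0.20 in the combination. The translocon genes Sec61a1, Sec61b and Ssr1, which bring proteins into the ER, differed by 0.03 ± 0.10, -0.03 ± 0.15 and 0.05 ± 0.11 there.

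**Figure D3:**
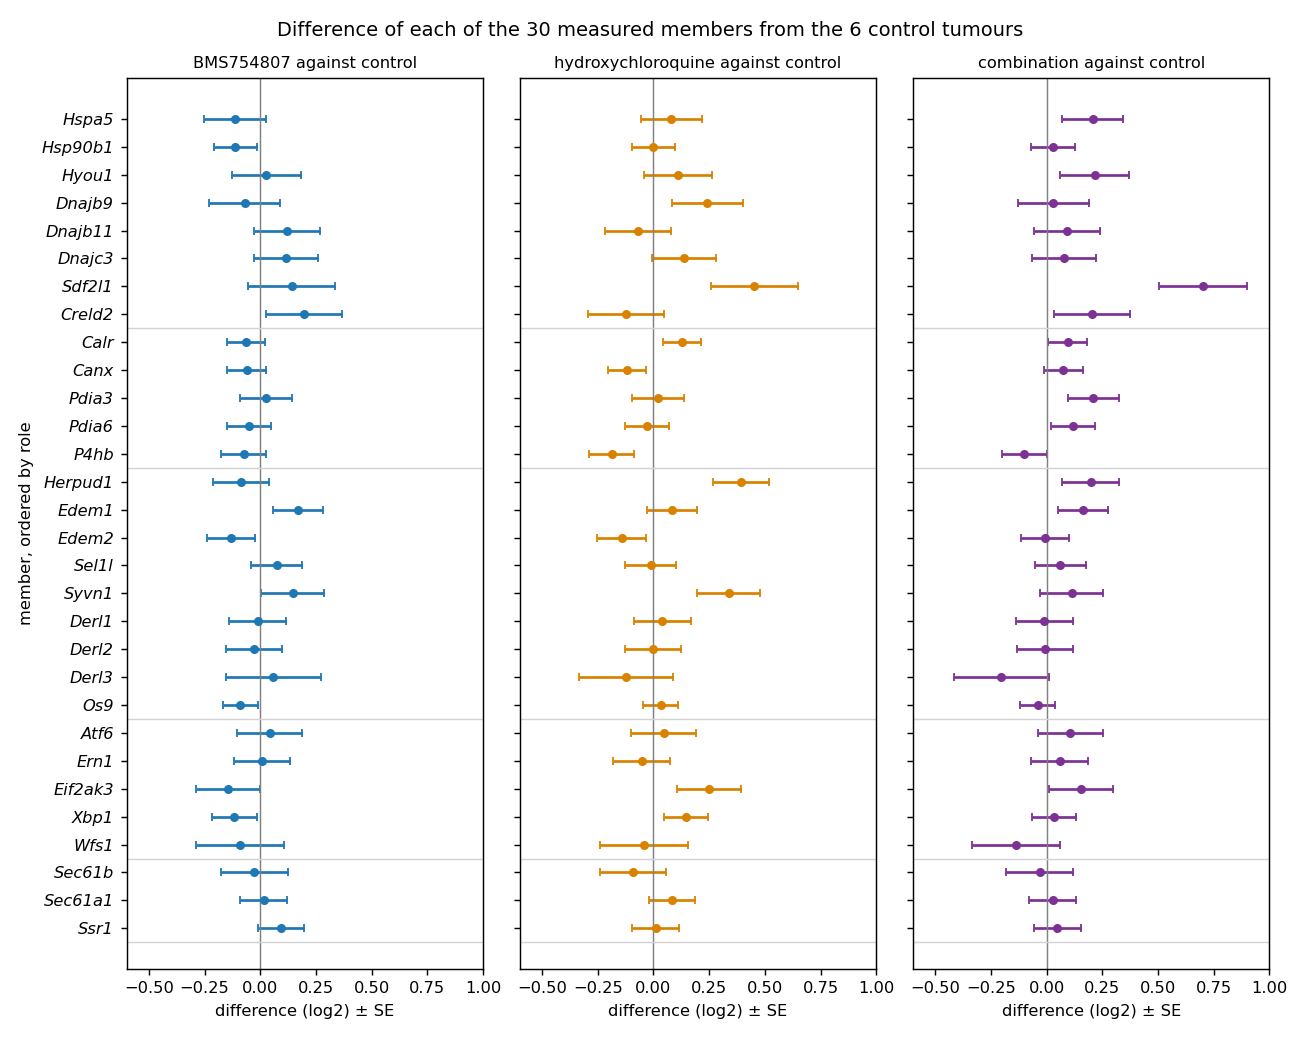
Difference from control (log2, x axis) with its SE for the 30 measured members, ordered by role from lumenal chaperones at the top to the translocon at the bottom, under BMS754807, hydroxychloroquine and the combination. In the combination panel all 8 lumenal chaperones lie to the right of 0, Hsp90b1 and Dnajb9 by only 0.03, and Sdf2l1 lies furthest out at 0.70.

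Set against BMS754807 alone, the combination gave 4 members at an unadjusted p under 0.05, all higher, where 8.61% of all genes had such a p and 5.13% were higher with it. They were Sdf2l1 (0.56 ± 0.20), Hspa5 (0.32 ± 0.14), Herpud1 (0.28 ± 0.13) and Eif2ak3 (0.30 ± 0.14), with adjusted p of 0.434 to 0.579 in limma. For Sdf2l1, Hspa5 and Herpud1 all 6 combination tumours lay above the BMS754807 mean, although each pair of groups overlapped. The count fell to 1 without BMS754807 tumour 6 and to 2 without BMS754807 tumour 5 or without combination tumour 3, 4, 5 or 6. It was 2 without the tumours rich in B and plasma cell transcripts, and 1 without the muscle-rich tumours, with the epithelial score as a covariate, or with median-centred arrays. All measured macrophage (11, median -0.35), fibroblast (11, -0.20), endothelial (9, -0.56), adipocyte (9, -1.43) and skeletal muscle (15, -1.02) markers were lower in this comparison. Of 13 epithelial markers 10 were higher (0.41). An unadjusted p under 0.05 in limma was seen for 2 macrophage markers, 2 epithelial ones (1 higher, 1 lower) and 0 of the other lists. Apart from the covariate and left-out values above, the part of these cell types was not tested. Lower members with the lowest p were Derl3 (-0.26 ± 0.21) and Ssr1 (-0.05 ± 0.11).

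Set against hydroxychloroquine alone, the combination gave 1 member at an unadjusted p under 0.05, where 5.39% of all genes did. This was Canx, the membrane-bound lectin chaperone, at 0.20 ± 0.09 (adjusted p = 0.902 in limma), with 6 of 6 combination tumours above the hydroxychloroquine mean. Creld2 followed at 0.33 ± 0.17, and Syvn1 (-0.23 ± 0.14) and Herpud1 (-0.20 ± 0.13) were the lower members with the lowest p. Leaving out hydroxychloroquine tumour 1 raised the count to 3 and leaving out combination tumour 2 raised it to 2; leaving out hydroxychloroquine tumour 3, 4 or 5 or combination tumour 4 brought it to 0. Epithelial markers were higher in 12 of 13 (median 0.17) here. The macrophage (11, -0.44), fibroblast (11, -0.49) and T and NK cell (10, -0.42) markers were all lower. Of these 4 lists 1 macrophage marker and 0 others had an unadjusted p under 0.05 in limma. Apart from the setting with the epithelial score as a covariate, the part of these cell types was not tested.

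A main effect averages over the other agent and sets 12 tumours that received an agent against 12 that did not. For hydroxychloroquine 5 members had an unadjusted p under 0.05, all higher, where 8.09% of all genes had such a p and 4.54% were higher with it. Herpud1 differed by 0.34 ± 0.09 (1.26-fold, 95% interval 0.15 to 0.52), and 12 of 12 treated tumours lay above the mean of the untreated. Sdf2l1 differed by 0.51 ± 0.14 (1.42-fold, 95% interval 0.22 to 0.79), with 10 of 12 above. Eif2ak3 (0.27 ± 0.10), Calr (0.14 ± 0.06) and Xbp1 (0.15 ± 0.07) followed, and Hspa5, just outside that threshold, stood at 0.20 ± 0.10. Adjusted p was 0.299 for Herpud1 and 0.300 for Sdf2l1 in limma, and over 36 alternative settings it ran from 0.155 to 0.458 and from 0.217 to 0.471. The lower members with the lowest p were P4hb (-0.11 ± 0.07) and Derl3 (-0.19 ± 0.15).

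The hydroxychloroquine count fell to 3 without control tumour 2, without BMS754807 tumour 6 or with median-centred arrays, and to 2 without the 3 tumours rich in B and plasma cell transcripts. In the last setting Herpud1 differed by 0.30 and Sdf2l1 by 0.38. All 11 macrophage markers, 9 of 9 endothelial and 9 of 9 adipocyte markers were lower in the hydroxychloroquine main effect, with medians of -0.22, -0.29 and -0.97. Of these, 2 macrophage, 1 endothelial and 1 adipocyte marker had an unadjusted p under 0.05 in limma. The part of these cell types in the member differences was not tested.

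For BMS754807 the main effect gave 1 member at an unadjusted p under 0.05 (5.72% of all genes), Creld2 at 0.26 ± 0.12 (adjusted p = 0.850 in limma). Edem1 was next among the higher members at 0.12 ± 0.08, and Xbp1 (-0.12 ± 0.07) and Herpud1 (-0.14 ± 0.09) were the lower members with the lowest p. Creld2 lay close to the threshold (unadjusted p = 0.041 in limma), and its difference ran from 0.22 to 0.32 over 36 alternative settings. The count was 0 without any one of control 1 to 4, BMS754807 2 or 4, hydroxychloroquine 2 to 5, or combination 3 or 4, and 2 without hydroxychloroquine 1.

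The interaction asks whether the 2 agents together differed from the sum of their single differences. It gave 1 member at an unadjusted p under 0.05 (5.05% of all genes), Canx at 0.26 ± 0.12 (adjusted p = 0.951 in limma), followed by Edem2 at 0.27 ± 0.15. Syvn1 (-0.37 ± 0.20) and Dnajc3 (-0.17 ± 0.20) were the lower members with the lowest p. For Sdf2l1 the interaction was 0.11 ± 0.28 with a 95% interval of -0.47 to 0.68. The count was 0 without control 1 or 3, BMS754807 6, hydroxychloroquine 3, 4 or 5, or combination 2 to 6, and 2 without BMS754807 1 or 3 or hydroxychloroquine 2.

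The wider ER stress pathway was followed in 97 further genes, of which 94 were measured. In the combination against control 2 of the 94 had an unadjusted p under 0.05, a smaller share than the 5.06% of all genes. They were Asns, the asparagine synthetase induced by ATF4, at 0.52 ± 0.23, and Ssr4, a translocon-associated subunit, at -0.29 ± 0.11, both with an adjusted p of 0.944 in limma. Of the 12 genes of ATF4 and CHOP output 3 were higher and 9 lower there, with a median of -0.09. Atf4 itself differed by -0.12 ± 0.14, Ddit3, which encodes CHOP, by -0.21 ± 0.26, and Trib3, a CHOP target, by -0.07 ± 0.19. Erp44 (0.27 ± 0.15), which retrieves unfinished proteins to the ER, had the lowest p of the 21 other folding enzymes, Atf6b (0.30 ± 0.19) of the 18 other degradation and sensing genes, and Sec13 (-0.21 ± 0.13) of the 17 genes of COPII export. The hydroxychloroquine main effect had 7 of the 94 at an unadjusted p under 0.05, 5 higher and 2 lower, which is no larger a share than the 8.09% of all genes.

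Members varied together between tumours of the same group. With group means removed, the median Pearson correlation over the 435 pairs of members was 0.22 across the 24 tumours, against 0.00 over all pairs of genes, and 330 pairs were above 0. The tumours share a platform and one processing, and these correlations are descriptions with no test. All members but Derl3 were brighter than the median gene, while all pairs of genes include dim ones. Pairs of genes of like signal were not compared. Lumenal chaperones had a median of 0.46, lectin chaperones and disulfide isomerases 0.23, degradation genes 0.14, sensors 0.09 and the 3 translocon genes 0.47. The closest pair was Hspa5 and Derl2 (0.80), then Dnajc3 and Creld2 (0.75), and the most opposed was Derl1 and Eif2ak3 (-0.67). Without hydroxychloroquine tumour 1 and BMS754807 tumour 6, the highest and lowest in the mean of all members, the median over pairs was 0.11 and that of the lumenal chaperones 0.31.

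Dnajc3, which encodes a co-chaperone known as p58IPK, followed the mean of the other members most closely, with r = 0.86 across 24 tumours and 0.86 without those 2. Hyou1 (0.79), Hspa5 (0.78) and Pdia6 (0.77) came next. Sdf2l1 stood at 0.38 and Herpud1 at 0.43, and at 0.14 and 0.10 without those 2 tumours. Derl3 (-0.12) and P4hb (-0.14) did not follow the others. The 11 members with an ERSE or ERSE-II, whose sequences are shown in part above, had a median pair correlation of 0.40. The 15 with a window but neither element had 0.09, and without the 2 tumours these were 0.22 and 0.05. Element and role were mixed in this split. The lumenal chaperones Hspa5, Hsp90b1, Dnajc3, Dnajb11 and Creld2 were among the 11, and Dnajb9 and Sdf2l1 among the 15. The sensors and factors Ern1, Eif2ak3, Xbp1 and Wfs1 were among the 15. Which of element and role goes with the correlation was not tested. In the combination against control 10 of the 11 and 9 of the 15 were higher, with medians of 0.09 and 0.03. Under hydroxychloroquine 5 of the 11 and 8 of the 15 were higher (medians -0.002 and 0.010), and under BMS754807 5 and 6 (medians -0.052 and -0.028), so the group with an element did not have the higher median there. In the hydroxychloroquine main effect 8 of the 11 and 8 of the 15 were higher, with medians of 0.07 and 0.01. Outside the members, the genes most like their mean were Wdr75 (r = 0.87), Nop58 (0.85), Papola (0.82), Uchl3 (0.82) and Dph2 (0.81), over 24 tumours. None of these is in the ER lists followed here. They are the top of 19475 genes, and their r was not recomputed without hydroxychloroquine tumour 1 and BMS754807 tumour 6.

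**Figure D4:**
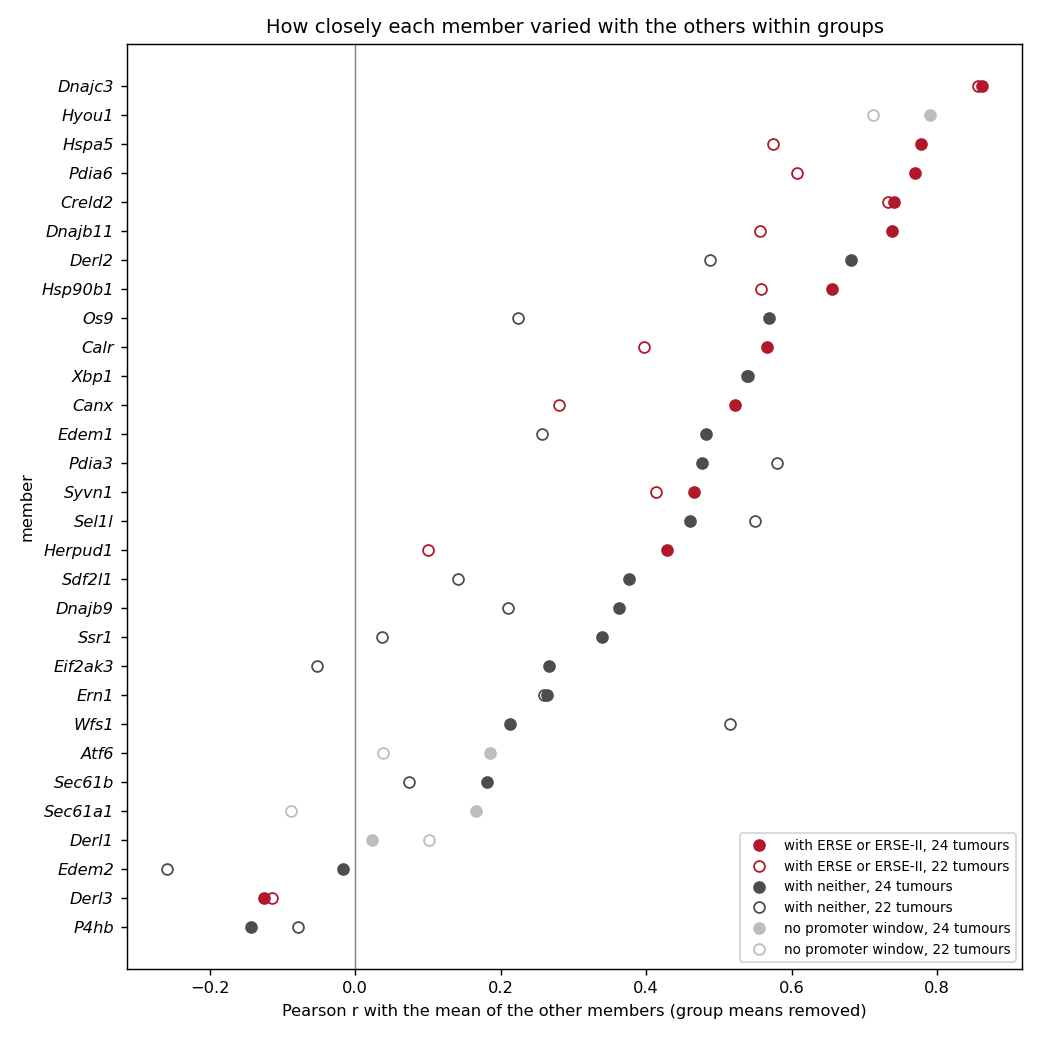
Pearson r (x axis) of each member with the mean of the other members, group means removed, over 24 tumours (filled) and over 22 without hydroxychloroquine 1 and BMS754807 6 (open), coloured by the presence of ERSE or ERSE-II. Dnajc3 stays at 0.86 in both, while Sdf2l1 moves from 0.38 to 0.14.

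Single tumours carried much of the spread. Hydroxychloroquine tumour 1 was the highest of the 24 for 11 of the 30 members, with a member score of 0.25, and BMS754807 tumour 6 was the lowest for 9, with a score of -0.18. Combination tumour 3 lay above the member's mean for 28 of 30. Member scores ran from -0.14 to 0.12 in control, -0.18 to 0.08 in BMS754807, -0.06 to 0.25 in hydroxychloroquine and -0.03 to 0.17 in combination tumours, and these ranges overlapped. The highest of the 4 group means was that of the hydroxychloroquine group for 10 members and that of the combination for 10, and the combination mean was the lowest for 2.

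Other cell types moved with these tumours. The B and plasma cell score was 2.32 in hydroxychloroquine tumour 1, the highest of all, and its 10 measured markers were 5 higher and 5 lower in the combination. Cd79a of B cells ran from 2.73 to 10.95. Of the 10 markers 5 lay below every array median in all 24 tumours, among them the plasma cell genes Jchain (1.98 to 3.91) and Mzb1 (2.06 to 3.56). Sdc1 (15.04 to 15.69), which epithelial cells also express, and Prdm1 (8.32 to 11.54) lay above every array median in all 24. Across the 24 tumours, with group means removed, the member mean had a Pearson r of 0.47 and a Spearman rho of 0.22 with the B and plasma cell score, and an r of 0.22 without hydroxychloroquine 1 and BMS754807 5. Among the other lists its r ran from -0.31 (fibroblast) to 0.33 (T and NK cell). Hspa5 had r of -0.55 with the fibroblast, -0.54 with the macrophage and -0.50 with the endothelial and the muscle score. Its r was 0.49 with the epithelial and 0.41 with the B and plasma cell score. BMS754807 tumour 6 and hydroxychloroquine tumour 1, lowest and highest for Hspa5, had fibroblast scores of 1.02 and -0.83. Their muscle scores were 3.50 and -2.04 and their endothelial scores 1.53 and -0.33. The r of Hspa5 were not recomputed without those 2 tumours and may rest on them. BMS754807 tumour 6 had the highest macrophage score (1.64) and adipocyte score (4.63) of the BMS754807 group, and an epithelial score of -0.92, next to the lowest, -0.93, in BMS754807 tumour 5. In the combination against control 11 of 13 epithelial markers were higher (median 0.20). There 11 of 11 macrophage and 9 of 9 endothelial markers were lower (medians -0.55 and -0.44). In that comparison 2 epithelial, 3 macrophage and 0 endothelial markers had an unadjusted p under 0.05 in limma. Over 25 alternative settings, among them the epithelial score as a covariate, the Hspa5 difference there ran from 0.10 to 0.27 and that of Pdia3 from 0.13 to 0.285. Apart from such settings, the part of these cells in the chaperone differences was not tested.

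**Figure D5:**
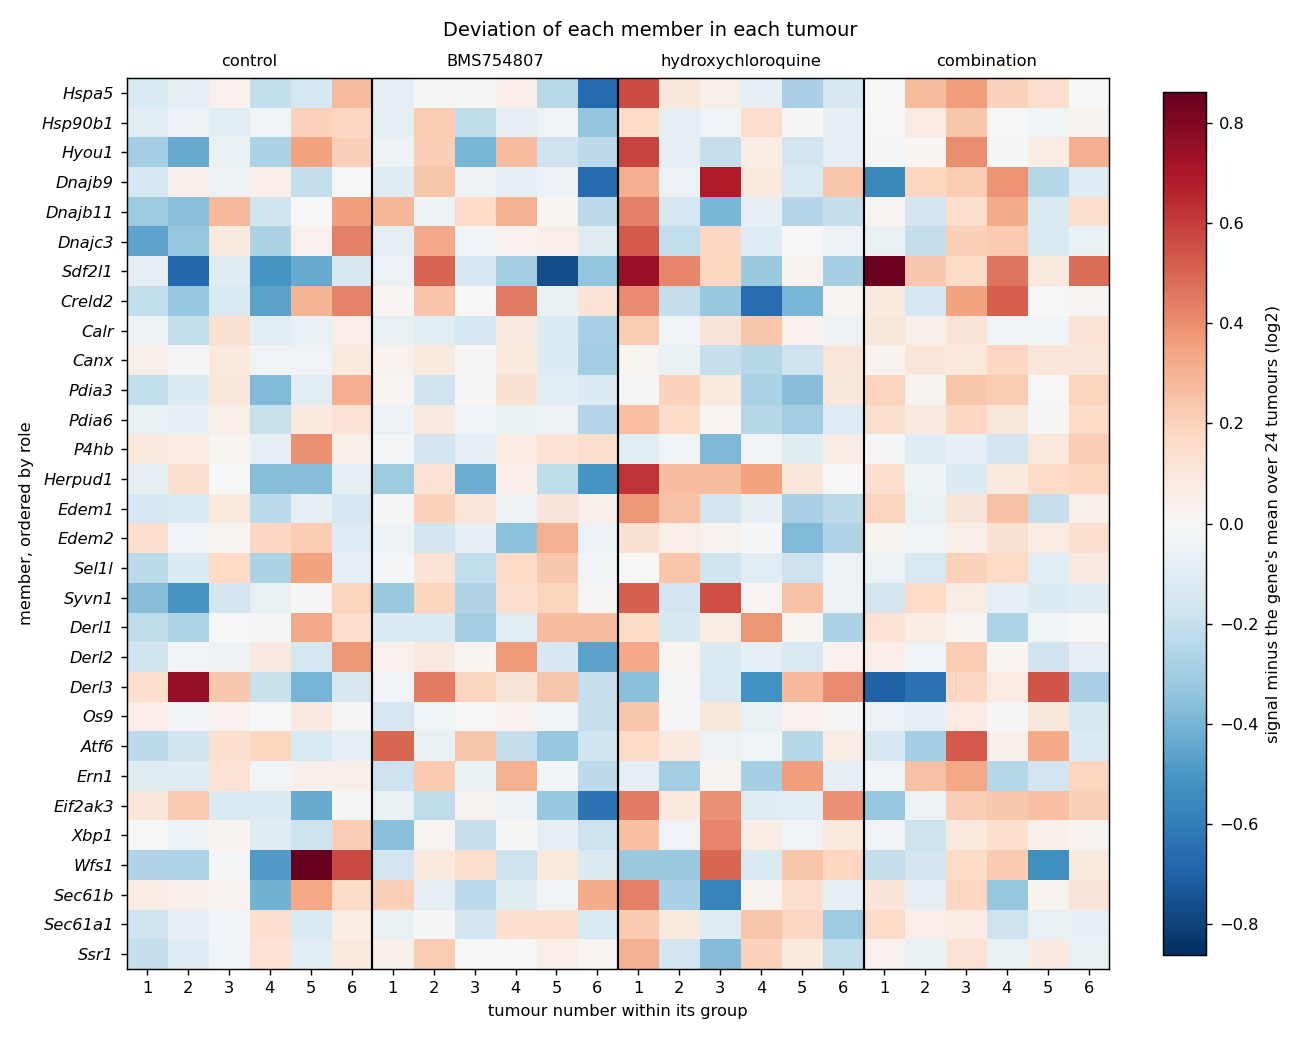
Deviation of each member in each tumour from that member's own average across all 24 (log2, colour), with members in rows ordered by role and tumours in columns by group. Hydroxychloroquine tumour 1 is red in most rows, BMS754807 tumour 6 is blue in many, and combination tumour 3 is above the mean in 28 of 30.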

How the data were processed

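RNA of 24 mouse tumours was measured on Clariom S arrays, 1 per tumour. The deposited values are log2 signal made by the authors; Transcriptome Analysis Console 4.0 is named in the submitters' processing notes, and the background correction, normalization and summarization are not given in the sources used here. The log base was taken from the range of the values, 1.45 to 19.0. Of 22206 probe sets 19572 had 1 gene symbol in the platform annotation, 2634 had none, and 67 second probe sets of a gene were dropped, leaving 19505 genes. All 24 arrays entered 1 linear model, with a term for each group, in limma 3.58.1 (R 4.3.3; lmFit, eBayes, 20 residual degrees of freedom), with two-sided p adjusted over all genes by the Benjamini-Hochberg method. No depth exists for arrays. Described sample by sample were 11 fixed members, of which Manf and Pdia4 were unmeasured, and the 3 of smallest p in each comparison with control; elsewhere the 2 of smallest p in each direction were named, with fixed pathway genes, the pathway list genes of smallest p in the combination and the 5 genes most like the member mean. Other genes mentioned were chosen after their values were seen. The members and lists were chosen with earlier results of these data known. Mzb1 is in both a marker list and a pathway list. The procedure was tested on simulated data with independent normal noise for each gene and planted differences larger than that of any member. That test does not show how well differences as small as those of the members are found. Alternatives changed the normalization, probe set choice, filter, weights, variance prior, samples, marker covariates and replicate block.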

Additional observations from a re-analysis of the deposited data

Results flagged for a closer look

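In 5 of the 120 combinations of a member and a group, 1 tumour stood apart from the other 5 of its group by Dixon's test; chance gives about 1 in 20. Hydroxychloroquine tumour 1 was high for Hyou1 (13.84, the next tumour at 13.32) and for Derl2 (12.59, next 12.30). BMS754807 tumour 2 was high for Dnajc3 (13.25, next 12.98) and for Ssr1 (15.06, next 14.90). Control tumour 5 was high for P4hb (15.86, next 15.55). Hydroxychloroquine tumour 1 also had the highest B and plasma cell score, and BMS754807 tumour 2 and control tumour 5 were among the 5 muscle-rich tumours; the part of these cells was not tested.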

How the results depend on the processing

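Over 37 alternative settings, 1374 of the 1376 recomputed differences of named members kept their direction. The exceptions were both Hspa5 under hydroxychloroquine against control, at -0.025 without hydroxychloroquine tumour 1 and at -0.025 without the 3 tumours rich in B and plasma cell transcripts, with a range of -0.025 to 0.143 over the settings. Named members include those of smallest p, and most settings only left out 1 tumour, so most directions could hardly change. The median over all members crossed 0 in BMS754807 against control (-0.046 to 0.039) and hydroxychloroquine against control (-0.0175 to 0.076). It also did so in the combination against BMS754807 (-0.004 to 0.071), the BMS754807 main effect (-0.0065 to 0.040) and the interaction (-0.008 to 0.071). In the other comparisons it kept its sign. The number of genes past an adjusted p of 0.05, which was 0, became 5 in the hydroxychloroquine main effect with the trend and robust options of eBayes and 1 with the skeletal muscle score as a covariate. Leaving out 1 tumour gave 0 to 2 such genes in the hydroxychloroquine main effect, 0 to 1 in BMS754807 against control and 0 to 1 in the combination against BMS754807. With the replicate number as a block, 1 gene passed in hydroxychloroquine against control and 1 in the hydroxychloroquine main effect. Over the most variable genes, deviations of same-numbered tumours had a median correlation of -0.029, and 13 of 36 pairs were above 0.1. For tumours of different number the median was 0.016. No pairing by number was seen, but such correlations cannot exclude a batch shared by number. The cause of these changes was not tested. Main effects and the interaction need all groups and were not run on the groups compared alone. The cutoffs for muscle-rich and B cell rich tumours were chosen after seeing the data.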
